A study of Mus musculus with 6 samples.

Results

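This report covers 8 genes of the cardiac conduction system and of the pacemaker: the transcription factor genes Shox2, Tbx2 and Tbx3, the ion channel genes Hcn4 and Scn10a, and the connexin genes Gja5, Gjc1 and Gja1. They were chosen by name, and a gene was taken as measured where a row of the array carried its symbol and no other. By that rule 7 of the 8 were found among 14860 genes with a single symbol, each through 1 row. No row named Hcn4, the main pacemaker channel of the sinus node, so it was not analysed here.

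Expression was measured on Affymetrix arrays in whole mouse hearts at stage E13.5 of gestation. Conditional knockout hearts had the genotype Mesp1 Cre/+; Hic2 FL/FL, in which Mesp1-Cre, a recombinase of the early mesoderm that forms most of the heart, deletes floxed copies of Hic2, a gene for a zinc finger transcriptional repressor. Control hearts were Hic2 FL/FL. Both floxed alleles were thus shared by all embryos, and the Cre allele was present only in the knockout, so Hic2 loss and the Cre allele cannot be told apart. Each genotype had 3 biological replicates, each a pool of 4 to 6 hearts on 1 array.

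The sinus node starts each beat, the atrioventricular node delays it, and the fast-conducting bundle and Purkinje fibres carry it into the ventricles. In the embryo, nodal cells keep a slow-conducting state because Shox2, Tbx2 and Tbx3 hold down the programme of the working chambers, including the fast connexins. Connexins form the gap junctions through which current passes from cell to cell, and those of the nodes conduct less than those of the chambers. These cells are a small part of a whole heart, and in such tissue fewer cells of a type and less RNA per cell cannot be told apart.

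Values are log2 expression, so a difference of 1 is a doubling, and they are given as knockout minus control with the standard error of a limma fit across all 14860 genes. A gene passed where the Benjamini-Hochberg adjusted p of that fit was under 0.05. Precision is set by having only 3 arrays in each genotype. Medians per array lay between 7.41 and 7.48, and the arrays correlated at 0.993 or more. Control replicate 3 stood apart in Y-linked genes, with Eif2s3y at 4.36 against 8.51 or more on every other array, so values are also given without it. The targeted gene Hic2 had log2 values of 8.07, 7.96 and 8.04 in knockout hearts and 8.10, 8.26 and 8.14 in control hearts. Its difference of -0.14 ± 0.07 had a limma adjusted p of 0.314, and the place of its probes relative to the deleted part was not known here. Of 10 heart muscle markers 5 were measured, and the cardiac troponin gene Tnnt2 stood at 13.86 ± 0.09 in knockout hearts and 13.86 ± 0.03 in control hearts (SD, n = 3 each). The differences of all 5 lay below 0, with a median of -0.07 and 0 past the limma test. The smallest p belonged to Mybpc3, a sarcomere gene, at -0.16 ± 0.06 (adjusted p = 0.231) with every knockout array below every control array.

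None of the 7 measured members passed the limma test between conditional knockout and control hearts. The background share of all genes that passed was 0.559% (83 of 14860), made up of 0.336% higher and 0.222% lower in the knockout. At an unadjusted p under 0.05 there was 1 member, Shox2, where 17.5% of all genes reached that level, 10.7% higher and 6.8% lower. The 3 transcription factors had differences below 0, and Scn10a and the 3 connexins had differences above 0. The sign for Gjc1 turned when arrays were weighted by quality and without knockout replicate 3, and the other signs were kept under every alternative run. The median over the 7 members was 0.04, against 0.005 over all genes.

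**Figure D1:**
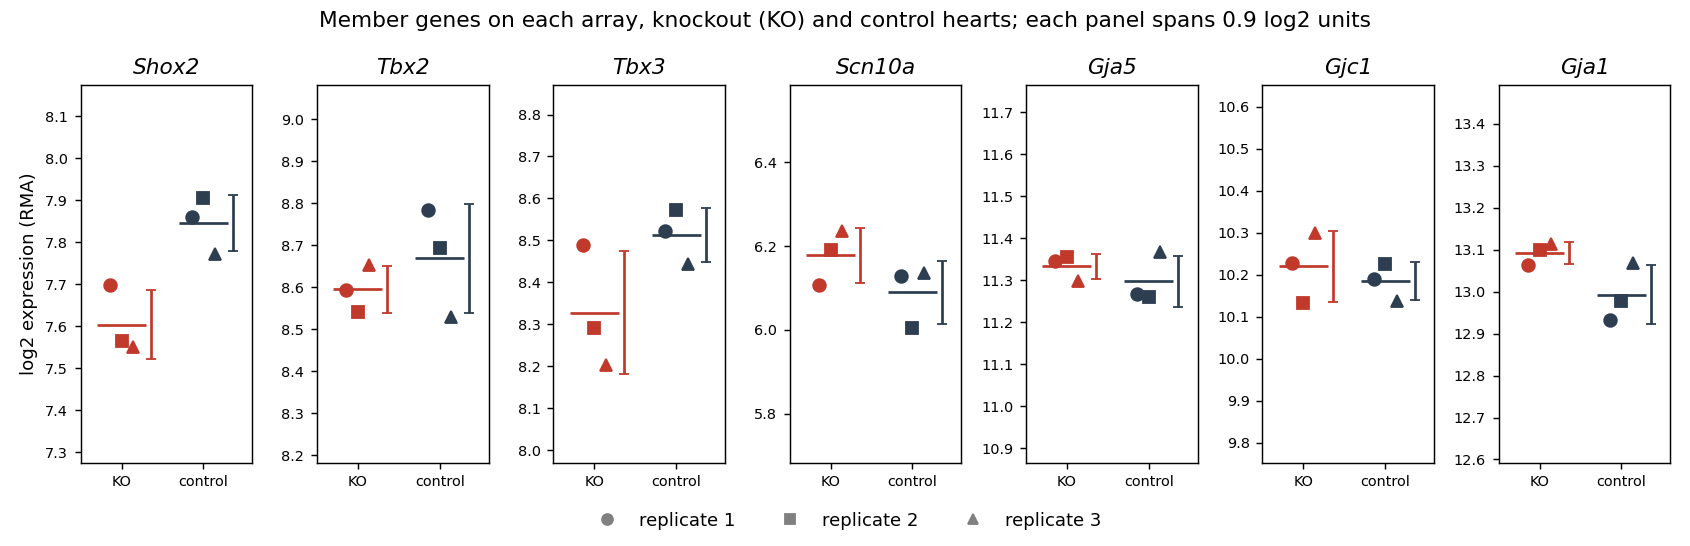
Log2 expression of the 7 measured genes on each array, with conditional knockout (KO, red) left of control (dark), 1 symbol shape per replicate number, a line at the mean and a bar of 1 SD over 3 arrays. Only in the Shox2 panel do the groups lie fully apart, knockout at 7.55 to 7.70 and control at 7.77 to 7.91.

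Shox2 codes for a homeodomain protein that sinus node development requires, where it restrains Nkx2-5. Shox2 stood at 7.70, 7.56 and 7.55 in knockout hearts, against 7.86, 7.91 and 7.77 in control hearts. Every knockout array lay below every control array, a separation found in 24.6% of all genes in either direction and in 10.4% with the knockout below. The means were 7.60 ± 0.08 in knockout and 7.85 ± 0.07 in control hearts (SD, n = 3 each). The difference was -0.24 ± 0.07, a signal 0.845 times that of control, with a 95% confidence interval of 0.757 to 0.944 times before any correction for the number of genes tested. The limma adjusted p was 0.157, short of the threshold, and the exact two-sided permutation test of 3 against 3 arrays gave 0.1, the smallest p it can give. Weighting arrays by quality brought Shox2 past the threshold (limma adjusted p = 0.0341). That setting gave knockout replicate 2 a weight of 4.19 and let 733 of 14860 genes pass, against 83 without weights. Over all the alternatives the limma adjusted p of Shox2 ran up to 0.367. Without control replicate 3 the difference was -0.28 (adjusted p = 0.226).

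Nkx2-5 is the chamber factor that Shox2 is known to oppose in the sinus node region. It stood at 11.79 ± 0.21 in knockout hearts and 12.16 ± 0.03 in control hearts (SD, n = 3 each). The difference of -0.37 ± 0.10 did not pass either (limma adjusted p = 0.157), with all knockout arrays below all control arrays. Nkx2-5 passed with array weights (limma adjusted p = 0.0431), where 733 of 14860 genes did. Within an array, the Shox2 value minus the Nkx2-5 value changed by 0.13 between the genotypes, and an exact permutation test gave p = 0.3 (0.625 adjusted over the 5 pairs compared). The groups overlapped in that quantity. With 3 arrays in each genotype this test cannot give a p under 0.1, so it cannot decide whether the 2 genes changed unequally.

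Summed levels of several cell type marker lists did not overlap between the genotypes. Each sum was taken on linear values, so the brightest genes of a list weigh most in it. On the log2 scale the sum of the 9 measured of 10 atrial markers was 14.84 to 14.92 in knockout and 14.76 to 14.80 in control hearts. Of the 9, 5 had differences above 0 and 4 below, and 0 passed the limma test. Nppa, the brightest of the 9, differed by 0.25, and Nr2f1, with the smallest p, by -0.50 (limma adjusted p = 0.0666). The summed level of the 9 measured of 10 red blood cell markers was 12.43 to 12.65 in knockout hearts and 13.48 to 13.62 in control hearts, with all 9 differences below 0 and 5 past the test. The summed level of the 10 macrophage markers, all measured, was 11.98 to 12.10 in knockout hearts and 11.58 to 11.76 in control hearts, with all 10 differences above 0 and 2 past the test. The summed level of the 5 measured of 7 ventricular markers was 14.67 to 14.83 in knockout hearts and 14.59 to 14.65 in control hearts, with 4 differences above 0, 1 below and 0 past the test. That of the 10 measured of 12 skeletal muscle markers was 13.54 to 13.70 in knockout hearts and 13.16 to 13.26 in control hearts. Of these markers 6 had differences above 0 and 4 below, and 1 passed the test. It was Tnnt3, at 1.81 ± 0.14 (limma adjusted p = 0.00883), the highest difference among all genes tested. Ckm, the brightest of that list, differed by 0.49, and the muscle factor gene Myod1 by -0.06. In each of these sums the genotypes did not overlap, and the part of such shifts in the Shox2 value was not tested.

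The sequence just before the start of Shox2 is shown because this gene had the smallest p of the members. It is taken from RefSeq (GRCm38.p6), where 5 of the 8 members had a promoter entry, and runs from 100 bases before the start to the base before it (chr3:66981772-66981871, minus strand). Of its 100 bases 86.0% are C or T, and capitals would mark a match to any of the motifs named further on.
Shox2: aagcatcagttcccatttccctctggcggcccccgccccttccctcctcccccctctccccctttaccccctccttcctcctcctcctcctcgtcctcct

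Tbx3 and Tbx2 code for closely related T-box repressors. Tbx3 keeps the nodes and the atrioventricular bundle in their pacemaker state, and Tbx2 acts in the atrioventricular canal. Tbx3 stood at 8.49, 8.29 and 8.20 in knockout hearts and at 8.52, 8.57 and 8.44 in control hearts. The groups overlapped, since knockout replicate 1 lay above control replicate 3 while the remaining knockout arrays lay below all controls. The difference was -0.19 ± 0.09, or 0.880 times control, with a limma adjusted p of 0.314. The difference was -0.27 without knockout replicate 1 and -0.12 without knockout replicate 3, and -0.22 without control replicate 3, none past the threshold.

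Tbx2 values were 8.59, 8.54 and 8.65 in knockout hearts and 8.78, 8.69 and 8.53 in control hearts. The knockout values lay inside the control range, and control replicate 3 was the lowest of the 6 arrays. The difference was -0.07 ± 0.08 (limma adjusted p = 0.675), with a 95% confidence interval of 0.836 to 1.08 times control. It was -0.14 without control replicate 3 and -0.02 without control replicate 1. The Tbx3 value minus the Tbx2 value changed by -0.11 between the genotypes (exact permutation p = 0.5, 0.625 adjusted over 5 pairs). That change was -0.02 without knockout replicate 3 and -0.19 without knockout replicate 1. Tbx3 and Tbx2 were not shown to change unequally, and a test that cannot give a p under 0.1 cannot decide it.

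Shox2 and Tbx3 ranked the arrays alike within each genotype, highest in knockout replicate 1 and lowest in knockout replicate 3, and highest in control replicate 2 and lowest in control replicate 3. Tbx2 did not share this order. The T-box gene Tbx18 and the red cell gene Rhag had it too, so the order was not particular to Shox2 and Tbx3. Its share over all genes was not counted. Of the 17 genes of the T-box family 16 were measured, and 0 passed the limma test, with 1 at an unadjusted p under 0.05. In 13 of the 16 the difference lay below 0, where 48.4% of all genes did, and the family's median was -0.03, against 0.005 over all genes. Only 6 of the 16 were brighter than the median gene, 5 of them with differences below 0. The count of 13 was 11 with array weights, without knockout replicate 2 and without control replicate 3. The smallest p belonged to Tbx18, a factor of the sinus horn and the epicardium, at 10.30 ± 0.13 in knockout and 10.54 ± 0.06 in control hearts (SD, n = 3 each), with a limma adjusted p of 0.197. Tbx20, needed for chamber growth and known to hold Tbx2 down, differed by -0.11 ± 0.06 (adjusted p = 0.364). Tbx5, an activator of chamber and conduction genes, differed by 0.09 ± 0.06 (adjusted p = 0.436).

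Scn10a codes for a voltage-gated sodium channel best known from sensory neurons. Scn10a stood at 6.11, 6.19 and 6.24 in knockout hearts and at 6.13, 6.00 and 6.14 in control hearts. The groups overlapped, with knockout replicate 1 below controls 1 and 3. The difference was 0.09 ± 0.07 (limma adjusted p = 0.530), or 0.955 to 1.18 times control at 95% confidence, and 0.11 without control replicate 3. These values lie below the array medians of 7.41 to 7.48, and low RMA values cannot be separated from background here.

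Of 15 listed entries for voltage-gated sodium channels 10 were measured. None passed the limma test, and 2 were at an unadjusted p under 0.05 in opposite directions, where 17.5% of all genes were. Scn7a, an atypical sodium channel sensitive to sodium concentration, stood at 5.57 ± 0.09 in knockout and 6.05 ± 0.17 in control hearts (SD, n = 3 each; adjusted p = 0.0873). The beta subunit gene Scn3b stood at 6.90 ± 0.09 and 6.65 ± 0.12 in knockout and control hearts (SD, n = 3 each; adjusted p = 0.193). Hcn2, another pacemaker channel gene of the HCN family, stood at 7.16, 7.25 and 7.24 in knockout hearts and at 7.19, 7.14 and 7.34 in control hearts. Its difference was -0.01 ± 0.07 (limma adjusted p = 0.955), and the groups overlapped. The levels of Scn7a, Scn3b and Hcn2 also lie below the array medians of 7.41 to 7.48, so the limit given for Scn10a holds for them too.

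The 3 connexin genes had differences of 0.04 to 0.10, none past the threshold. Gja1 codes for connexin 43, the gap junction protein of working ventricular muscle. Gja1 stood at 13.06, 13.10 and 13.11 in knockout hearts and at 12.93, 12.98 and 13.07 in control hearts. The groups overlapped only through control replicate 3, which lay just above knockout replicate 1. The difference was 0.10 ± 0.06 (limma adjusted p = 0.431), with a 95% confidence interval of 0.972 to 1.18 times control, and 0.14 without control replicate 3 (adjusted p = 0.364).

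Gja5 codes for connexin 40, the fast-conducting connexin of the atria, the bundle branches and Purkinje fibres, and of arterial endothelium. Gja5 stood at 11.34, 11.35 and 11.30 in knockout hearts and at 11.27, 11.26 and 11.37 in control hearts. Control replicate 3 was the highest of the 6 arrays, and the groups overlapped. The difference was 0.04 ± 0.06 (limma adjusted p = 0.804), which bounds the knockout signal to 0.932 to 1.13 times control at 95% confidence. It was 0.07 without control replicate 3 and 0.02 without control replicate 2.

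Gjc1 codes for connexin 45, the low-conductance connexin of the nodes and of the early heart tube. Gjc1 stood at 10.23, 10.13 and 10.30 in knockout hearts and at 10.19, 10.23 and 10.14 in control hearts. The lowest and the highest of the 6 values were both from knockout hearts. The difference was 0.04 ± 0.07 (limma adjusted p = 0.820), or 0.922 to 1.14 times control at 95% confidence, and 0.01 without control replicate 3.

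Whether the connexins changed unequally was asked within each array, since levels of different probe sets cannot be set against each other. The Gja5 value minus the Gja1 value was 0.06 lower in knockout hearts, and the genotypes separated by less than the second decimal. The exact permutation test gave p = 0.1, the smallest it can give, and 0.5 adjusted over the 5 pairs. Gjc1 minus Gja1 changed by -0.06 (p = 0.5, exact permutation) and Gjc1 minus Gja5 by 0.0011 (p = 1, exact permutation). Since this test cannot give a p under 0.1 with 3 arrays per genotype, it cannot decide whether the balance of the 3 connexins shifted.

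**Figure D2:**
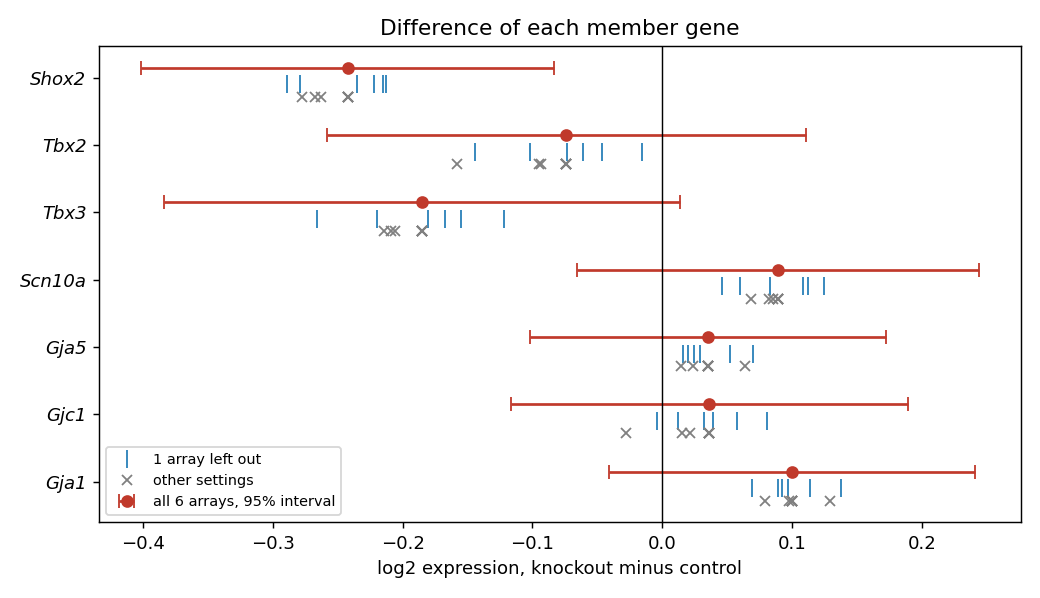
Log2 difference, knockout minus control, of each measured gene, with a red point and 95% confidence interval from all 6 arrays, blue ticks for fits with 1 array left out and grey crosses for the other settings. Only the interval of Shox2, from -0.40 to -0.08, does not reach 0, and these intervals are not corrected for the number of genes tested.

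Of 20 connexin genes 13 were measured, and 0 passed the limma test, with 1 at an unadjusted p under 0.05. That gene was Gja4, for connexin 37 of arterial endothelium, at 10.04, 10.02 and 10.15 in knockout hearts and at 9.83, 9.80 and 9.67 in control hearts. All Gja4 values in knockout hearts lay above those in control hearts, and the difference was 0.30 ± 0.07 (limma adjusted p = 0.111). Gja4 passed when only genes brighter than the median gene were tested (limma adjusted p = 0.0355), where 443 of 7430 genes did. The 12 arterial and coronary endothelial markers, all measured, had a summed log2 level of 14.08 to 14.16 in knockout hearts and 14.06 to 14.12 in control hearts, so the genotypes overlapped there. That list includes Gja4 and Gja5, and 7 of its differences lay above 0 and 5 below. In 2 of its genes the knockout arrays lay fully above control and in 2 fully below, where 24.6% of all genes separated. Differences lay above 0 in 10 of the 13 connexins, in 6 with array weights and in 6 each without knockout replicate 3 and without control replicate 2. Only 4 of the 13 were brighter than the median gene, all 4 with differences above 0.

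Connexins sit at the intercalated disc with adhesion and scaffold proteins. Of 13 listed partners 12 were measured, 0 passed the limma test and 3 were at an unadjusted p under 0.05, all with differences below 0. Over all genes 17.5% reached that level, 6.8% with the knockout lower. N-cadherin (Cdh2), the adhesion molecule of the disc, stood at 12.36 ± 0.03 in knockout and 12.55 ± 0.05 in control hearts (SD, n = 3 each; adjusted p = 0.172). Beta-catenin (Ctnnb1), which binds cadherins inside the cell, differed by -0.16 ± 0.07 (adjusted p = 0.277). The ankyrin gene Ank3 differed by -0.19 ± 0.08 (adjusted p = 0.278). The median over the 12 was -0.09, against 0.005 over all genes.

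Transcription factors known from conduction development gave no gene past the threshold. Of 18 listed 16 were measured, with 0 past the limma test and 5 at an unadjusted p under 0.05, 2 with differences above 0 and 3 below. The share of all genes at that unadjusted level was 17.5%. Irx5, an Iroquois factor that patterns ventricular repolarisation, stood at 9.68 ± 0.10 in knockout and 9.26 ± 0.01 in control hearts (SD, n = 3 each; adjusted p = 0.0538). Irx3, which supports fast conduction in the Purkinje system, differed by 0.28 ± 0.07 (adjusted p = 0.138). The count past the threshold was 3 with array weights, 2 among the 13 brighter genes and 1 each with a variance trend and after quantile normalisation.

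Among tissue markers of the conduction system 14 of 16 listed were measured, and 9 of the 14 had differences below 0, where 48.4% of all genes did. Of the 14, 0 passed the limma test, 3 were at an unadjusted p under 0.05, where 17.5% of all genes were, and the median was -0.13. Cpne5, a copine that marks the conduction system, stood at 8.40 ± 0.12 in knockout and 8.87 ± 0.11 in control hearts (SD, n = 3 each; adjusted p = 0.0689). Vsnl1, a calcium sensor enriched in the sinus node, differed by -0.22 ± 0.08 (adjusted p = 0.204). The Purkinje marker Cntn2 (0.05 ± 0.05, adjusted p = 0.711) and the nodal connexin gene Gjd3 (0.02 ± 0.10, adjusted p = 0.925) lay close to 0. Isl1, a factor of pacemaker progenitors, differed by -0.16 ± 0.17 (adjusted p = 0.680), with an SD of 0.25 in knockout and 0.30 in control hearts. With array weights 3 genes of this list passed, all lower in the knockout, and 1 passed with a variance trend and 1 among the brighter genes. The list shares genes with the T-box and transcription factor lists and is not separate evidence.

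Ion channels and their regulators in pacemaker and conducting cells held 2 genes past the limma threshold among 27 measured of 33 listed, 1 in each direction. Kcne3, a beta subunit of potassium channels, rose by 1.11 ± 0.12, to 9.68 ± 0.17 in knockout hearts against 8.57 ± 0.21 in control hearts (SD, n = 3 each; adjusted p = 0.0199). Kcnj8, the pore subunit of an ATP-sensitive potassium channel that also marks pericytes, fell by 0.53 ± 0.08, to 8.84 ± 0.04 against 9.36 ± 0.12 in control hearts (SD, n = 3 each; adjusted p = 0.0424). The Kcnj8 call was lost after median centring (adjusted p = 0.0564), after quantile normalisation (0.0507) and in each fit without 1 array. Kcne3 kept its call without knockout replicate 2 and without control replicate 1 and lost it in the other 4 such fits. Kcne1, another beta subunit, stood at 12.19 ± 0.13 in knockout and 11.65 ± 0.09 in control hearts (SD, n = 3 each; adjusted p = 0.0507), with every knockout array above every control array. Counts past the threshold in this list were 2 higher and 1 lower with a variance trend, 2 higher and 3 lower with array weights, 2 higher and 1 lower among the 19 brighter genes, and 0 over every row of the table. Cacna1d, the calcium channel of nodal pacemaking, stood at 7.92 ± 0.11 in knockout and 8.23 ± 0.12 in control hearts (SD, n = 3 each; adjusted p = 0.154). The T-type channel genes Cacna1g (0.03 ± 0.06) and Cacna1h (-0.08 ± 0.07) lay within the spread of the arrays.

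**Figure D3:**
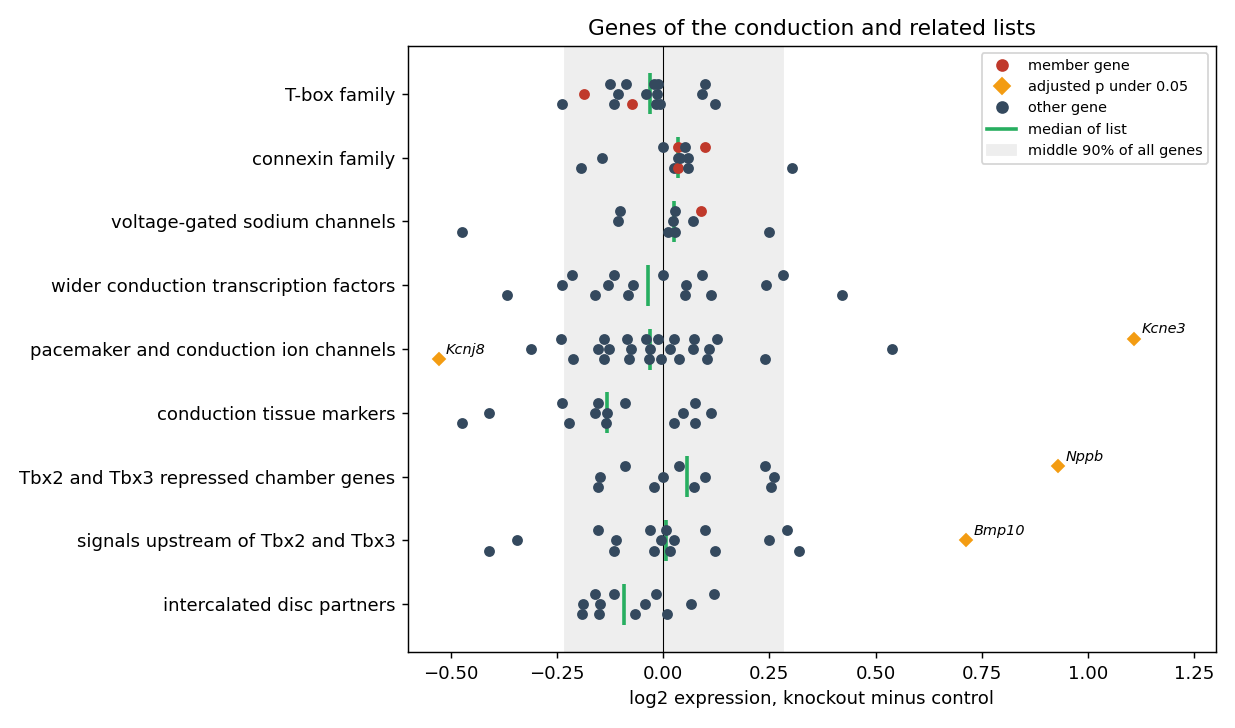
Log2 difference, knockout minus control, of each measured gene in 9 lists around the conduction genes, with red points for the genes this report is about, orange diamonds for genes past the limma threshold, green lines at list medians and a grey band holding the middle 90% of all genes, from -0.23 to 0.28. The genes of these lists that passed were Kcne3, Nppb and Bmp10 to the right, with Kcnj8 to the left.

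Chamber genes that Tbx2 and Tbx3 are known to repress were examined beside them. Of 13 listed 12 were measured, 1 passed the limma test and 2 more were at an unadjusted p under 0.05, all higher in the knockout. Over all genes 17.5% reached that unadjusted level, 10.7% with the knockout higher. Differences lay above 0 in 7 of the 12 and below 0 in 5, with a median of 0.06. The lowest was that of Ryr2, at -0.15 ± 0.10. Nppb, the gene of brain natriuretic peptide, rose by 0.93 ± 0.13 (adjusted p = 0.0424), a call lost in each fit without 1 array. Nppa, for atrial natriuretic peptide, the classic target of T-box repression, stood at 13.73, 13.85 and 13.88 in knockout hearts and at 13.57, 13.56 and 13.57 in control hearts. All knockout values of Nppa lay above those of control, with a limma adjusted p of 0.128. The sarcomere-associated gene Smpx (0.04 ± 0.07) and the calcium pump regulator Pln (-0.0004 ± 0.06) lay close to 0.

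The Nppa promoter is shown because it carries a T-box and an Nkx2-5 motif side by side, the element through which Tbx2, Tbx5 and Nkx2-5 are known to act. Gja5 is shown as a member among their known targets, though its window held neither of these motifs. The motifs searched on both strands, from 250 bases before to 50 after the start, were GGTGTGA for T-box factors, TNAAGTG for Nkx2-5 and GGGCANC for the core of the HIC element. In capitals, Nppa (chr4:148000472-148000531, plus strand) has a reverse T-box match at -250 to -244 and a forward Nkx2-5 match at -241 to -235. Nppa also has a forward HIC match at -108 to -102, outside the bases shown. Gja5 (chr3:97032152-97032211, plus strand) has a forward HIC match at -214 to -208.
Nppa: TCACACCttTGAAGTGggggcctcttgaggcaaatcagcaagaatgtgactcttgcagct
Gja5: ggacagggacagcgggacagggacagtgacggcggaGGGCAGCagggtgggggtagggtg

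Of 32851 RefSeq promoter entries (GRCm38.p6) 3.98% hold the T-box motif, 11.5% the Nkx2-5 motif and 18.5% the HIC core. Among the 5 member promoters, those of Shox2, Hcn4, Scn10a, Gja5 and Gja1, 0 held the T-box motif, 0 the Nkx2-5 motif and 2 the HIC core (Gja5 and Hcn4). A match is a run of letters and not a bound site, and the windows leave out distant enhancers.

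Signals that act upstream of Tbx2 and Tbx3 include the bone morphogenetic proteins, which switch Tbx2 on in the atrioventricular canal. Of 17 listed genes, all measured, 1 passed the limma test and 5 were at an unadjusted p under 0.05, while the median was 0.006. The 5 were 4 higher and 1 lower, and 17.5% of all genes reached that unadjusted level. Bmp10, the ligand of trabecular muscle, rose by 0.71 ± 0.08, to 12.42 ± 0.13 in knockout hearts against 11.70 ± 0.04 in control hearts (SD, n = 3 each; adjusted p = 0.0184). That call held without knockout replicates 1 and 2 and was lost in the other 4 fits without 1 array. Bmp2, the canal ligand, differed by -0.15 ± 0.14 (adjusted p = 0.625), and Bmp4 by -0.41 ± 0.19 (adjusted p = 0.325) with an SD of 0.43 in knockout and 0.10 in control hearts. The BMP-responsive genes Id1 (0.32 ± 0.10) and Id3 (0.29 ± 0.09) had every knockout array above every control array, at a limma adjusted p of 0.172 each.

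Genes whose values followed each member most closely over the 6 arrays were picked by Pearson's r, as a description without a test. For Shox2 they were Rhag, a gene of the red cell membrane (r = 0.998), and Osbpl5 (0.997). For Tbx3 they were Ahctf1 (0.994) and Alms1 (0.993), and for Tbx2 9930104L06Rik (0.980) and Mcpt1 (0.977). For Scn10a they were Hoxa4 (0.995) and Cox6a2 (0.993), for Gja1 Pdk2 (0.994) and Egr3 (0.989), for Gja5 Cd14 (0.965) and Olfr459 (0.965), and for Gjc1 Bag4 (0.977) and Anapc15 (0.973). With 6 arrays in 2 genotypes and 14860 genes to choose from, values this high are met for every member, and no member was nearest to another.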

How the data were processed

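RNA from heart pools was amplified, biotin-labelled and hybridised to Affymetrix arrays. The log2 values that the authors deposited are RMA output of Affymetrix Expression Console, as the submitters' processing notes say. RMA gives the arrays a shared distribution, so a change common to most genes would not show. Of 23332 rows 14996 carried 1 symbol in the platform annotation, 1019 several and 7317 none there. The row with the highest mean was kept for each of 14860 genes. The software version and genome build are not given in the sources at hand.

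Genes were compared with limma 3.58.1 (lmFit, eBayes) in R 4.3.3 on the deposited values, without a filter, at a Benjamini-Hochberg adjusted p under 0.05 over all genes. Errors with differences are standard errors and those with levels are SDs over 3 arrays. Pairs of genes were compared by exact two-sided permutation, and 2 planned pairs are not reported here. The fit was checked on simulated data. The members, lists and tests were chosen with earlier results of these data known. Named genes are the members, list genes past the threshold and otherwise those with the smallest p, with some list genes of known role added after their values were seen. Alternatives were a replicate block, moderated variance trend, array weights, centring, quantile normalisation, a brightness filter, all rows, row means and each array left out.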

Additional observations from a re-analysis of the deposited data

How the results depend on the processing

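Under 14 alternatives, the 7 members gave 93 of 96 values with the same sign and the same side of the threshold. Shox2 and Scn10a have no value among genes brighter than the median gene. Array weights took the count of members called to 1, Shox2, and turned the Gjc1 difference to -0.028. In fits without 1 array 0 members were called, Gjc1 ran from -0.00385 to 0.0803, and Gjc1 minus Gja5 ran from -0.0577 to 0.0562, reversed without knockout replicate 3 and without control replicate 3. In the same fits Gja5 minus Gja1 ran from -0.08 to -0.04, Gjc1 minus Gja1 from -0.13 to -0.02, and Shox2 minus Nkx2-5 from 0.05 to 0.18. The count over all genes, 83, was 203 with a variance trend and robust moderation, 733 with array weights, 443 among genes brighter than the median gene, 0 over every row of the table (2935 rows at an unadjusted p under 0.05, with Kcne3, Kcnj8, Bmp10 and Nppb losing their calls), and 3 to 28 without 1 array. Array weights ran from 0.556 for knockout replicate 3 to 4.19 for knockout replicate 2; the cause of these changes was not tested. Same-numbered arrays correlated at -0.04, 0.02 and 0.13 in their deviations from the group means. Knockout replicate 1 correlated best with control replicate 2 (0.22), and knockout replicate 3 with control replicate 3. The deviations cancel within each genotype, so these correlations depend on each other and cannot decide whether the numbers pair the arrays. With the replicate number as a block 38 genes were called, 0 of them members, and Shox2 had an adjusted p of 0.223. Kcnj8 lost its call there (adjusted p = 0.0757), as did both epicardial markers, leaving 0 in that list. The median over all genes is 0.005, and centring or quantile normalisation turned no member's sign. Dim probe sets such as that of Scn10a limit what can be read from low values.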

Other observations

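Neurons reach the heart around mid-gestation and lie near the nodes, and Scn10a is a neuronal channel. Of 12 neuron and neural crest markers 8 were measured and 0 passed the limma test, with 0 at an unadjusted p under 0.05. Their summed log2 level was 9.90 to 9.93 in knockout hearts and 9.88 to 9.99 in control hearts, so the genotypes overlapped. All 8 were dimmer than the median gene, with Dbh at 6.27 in knockout and 6.15 in control hearts. Low RMA values cannot be separated from background here, so this overlap does not show that neurons were unchanged. Differences lay above 0 in 5 of the 8. The smallest p belonged to the neuronal RNA-binding protein gene Elavl4 (0.17 ± 0.07, limma adjusted p = 0.301) and to Dbh, the enzyme that makes noradrenaline (0.13 ± 0.06, adjusted p = 0.341), each with every knockout array above every control array. The neuronal gene Stmn2 differed by -0.31 ± 0.21 (adjusted p = 0.477).

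The 8 valve and cushion mesenchyme markers, tissue beside the atrioventricular canal, had a summed log2 level of 13.26 to 13.45 in knockout hearts and 13.28 to 13.47 in control hearts, with 0 past the limma test and 0 at an unadjusted p under 0.05. The 8 epicardial markers had a summed level of 13.52 to 13.69 in knockout hearts and 13.34 to 13.49 in control hearts, without overlap, and Msln and Upk1b passed the limma test (adjusted p = 0.0418 and 0.0481). The count of 2 in this list was 0 in each fit without 1 array and over every row of the table, 1 after median centring, 4 among genes brighter than the median gene, and 3 higher and 1 lower with array weights. Of the 8 differences 6 lay above 0 and 2 below. Tbx18, which marks both the epicardium and the sinus horn, had a difference of -0.24, opposite in sign to those of Msln and Upk1b. Aldh1a2 also lay below 0, at -0.21 ± 0.17 (limma adjusted p = 0.577), with the groups overlapping.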
